A study of Mus musculus with 10 samples.

Results

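The Pax family, Pax1 to Pax9, was examined across 6 ChIP-seq region lists from CGR8 mouse embryonic stem cells (ESCs) and endoderm derived from them. Its members were every listed region that the authors assigned to a gene with one of these 9 names, which gave 143 of 78263 regions. Each region belonged to 1 Pax gene and carried no other gene. No genetic change is named in the labels, and the cells were grown without feeders in serum with LIF, between passages 18 and 25. The Endoderm SMAD2/3 and Endoderm HEB libraries came from cells put into serum-free medium, given Activin A at 100 ng/ml from day 2 and harvested at day 4. Endoderm+SB HEB came from cells of the same scheme with 10 µM SB431542 for 48 hours, and the labels do not settle how its addition stood in time to that of Activin A. ESC SMAD2/3 and ESC HEB were from undifferentiated ESCs, and ESC+SB HEB from ESCs given 10 µM SB431542 for 24 hours. SB431542 (SB) inhibits the type I receptor kinases of TGF-beta, activin and Nodal. SMAD2/3 was profiled without SB only. Each of the 6 groups had 1 ChIP library, and 4 inputs served them, so SMAD2/3 and HEB of the same cells had 1 input label between them. Without a second library of a group there was no replicate spread to test against, and every difference below compares these libraries. The files hold binding and not expression, so the labelled cell types could not be checked against expressed markers. Endoderm with SB thus names a label below, and whether those cells reached endoderm was not tested. In such bulk samples, binding in fewer cells and less binding per cell cannot be told apart.

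Pax proteins are transcription factors that share a DNA-binding paired domain and set the identity of organs and cell lineages in the embryo. Pax1 and Pax9 act in the sclerotome and the pharyngeal pouches, which are endodermal. Pax3 and Pax7 act in the dorsal neural tube, neural crest and muscle precursors. Pax2, Pax5 and Pax8 act in kidney, thyroid, the midbrain-hindbrain boundary and B cells, and Pax4 and Pax6 in the endocrine pancreas and, for Pax6, the eye and forebrain. Many of these genes are known to be silent in ESCs, held so by Polycomb group complexes. HEB, the product of Tcf12, belongs to the basic helix-loop-helix E proteins and binds E-boxes (CANNTG), and SMAD2 and SMAD3 carry activin and Nodal signals to chromatin, with CAGAC the core of the SMAD binding element.

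Promoter sequences are shown for Pax9, Pax7 and Pax1, because a HEB region covered the 5′ end of each in at least 3 lists and the RefSeq table held a single window for each. They are RefSeq windows of GRCm38.p6, 250 bases before to 50 after the gene start, read 5′ to 3′ on the gene's strand. Capitals mark CANNTG and CAGAC or its complement GTCTG. The Pax9 window lies at chr12:56695221-56695520 on the plus strand, that of Pax7 at chr4:139832919-139833218 on the minus strand and that of Pax1 at chr2:147364744-147365043 on the plus strand. The region lists use mm9, so the windows were not placed on the regions.
Pax9: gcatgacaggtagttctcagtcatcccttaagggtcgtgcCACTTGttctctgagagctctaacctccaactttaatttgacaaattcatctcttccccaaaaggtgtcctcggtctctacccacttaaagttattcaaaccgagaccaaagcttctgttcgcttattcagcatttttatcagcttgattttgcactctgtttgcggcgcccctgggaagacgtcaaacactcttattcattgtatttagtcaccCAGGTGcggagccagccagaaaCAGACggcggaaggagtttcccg
Pax7: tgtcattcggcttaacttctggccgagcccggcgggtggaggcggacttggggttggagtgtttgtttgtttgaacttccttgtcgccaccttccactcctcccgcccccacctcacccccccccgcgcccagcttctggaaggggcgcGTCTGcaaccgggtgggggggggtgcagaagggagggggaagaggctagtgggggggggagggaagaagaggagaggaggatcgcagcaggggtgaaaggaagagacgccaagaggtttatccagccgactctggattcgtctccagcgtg
Pax1: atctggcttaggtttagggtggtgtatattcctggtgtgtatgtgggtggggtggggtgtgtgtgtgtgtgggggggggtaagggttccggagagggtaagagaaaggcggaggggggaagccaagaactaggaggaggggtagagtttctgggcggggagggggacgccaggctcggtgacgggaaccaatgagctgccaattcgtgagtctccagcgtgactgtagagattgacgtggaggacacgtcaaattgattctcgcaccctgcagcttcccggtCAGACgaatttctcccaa
Pax9 held 2 CANNTG matches, 1 of them CAGGTG, and 1 CAGAC. Pax7 and Pax1 held no CANNTG and 1 match to CAGAC or GTCTG each. Motifs were searched on both strands, which for CANNTG is a single search, and CAGCTG and CAGGTG (or CACCTG) are subsets of CANNTG. Of 32851 RefSeq promoter windows of the same length, 72.3% held CANNTG, 16.3% CAGCTG, 20.2% CAGGTG or CACCTG, and 49.6% CAGAC or GTCTG. The table held 10 windows for 7 of the 9 Pax genes, with none for Pax3 and Pax4. The other windows held 0, 1 and 2 CANNTG matches at the 3 Pax2 starts, 0 and 1 at the 2 Pax6 starts, 1 at Pax5 and 1 at Pax8. These matches describe letters in the windows and say nothing of binding.

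The region lists held 11033 regions for Endoderm SMAD2/3, 10147 for Endoderm+SB HEB, 18981 for Endoderm HEB, 4111 for ESC SMAD2/3, 16769 for ESC+SB HEB and 17222 for ESC HEB. The deposited ChIP height, the tallest point of a region with no stated scaling, started at 28.0 in ESC+SB HEB and at 25.0 in the other lists. ChIP tags in regions summed to between 933126 (ESC SMAD2/3) and 5051930 (Endoderm HEB). Heights are therefore given per library, and a site missing from a list is one without a region above that list's cut.

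HEB was listed at 5 to 8 of the 9 genes and SMAD2/3 at 3 to 5. Of the 16 Pax sites with SMAD2/3, 15 had HEB in at least 1 list, whatever its cell state or treatment. The share over all SMAD2/3 sites was not computed for that count, so it is not shown to be particular to Pax genes. Endoderm SMAD2/3 had regions at 5 of the 9 genes, Endoderm+SB HEB at 5, Endoderm HEB at 7, ESC SMAD2/3 at 3, ESC+SB HEB at 7 and ESC HEB at 8. The same lists held 20.7%, 20.4%, 22.2%, 6.58%, 26.6% and 21.7% of 21896 protein-coding RefSeq genes, in that order. The Pax regions numbered 11 in Endoderm SMAD2/3, 21 in Endoderm+SB HEB, 31 in Endoderm HEB, 5 in ESC SMAD2/3, 36 in ESC+SB HEB and 39 in ESC HEB. With each list held to its 4111 tallest regions the numbers were 3, 18, 9, 5, 19 and 16 in the same order, and the Pax genes listed 2, 5, 4, 3, 7 and 6. Several regions at 1 gene were common. Of the listed Pax genes, 3 or more regions were held by 1 of 5 in Endoderm SMAD2/3 (8.88% of all listed protein-coding genes), 3 of 5 in Endoderm+SB HEB (7.48%) and 5 of 7 in Endoderm HEB (19.4%). The counts were 1 of 3 in ESC SMAD2/3 (7.71%), 6 of 7 in ESC+SB HEB (14.3%) and 6 of 8 in ESC HEB (18.2%). Gene length was not matched in that comparison, and several Pax genes are long.

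**Figure D1:**
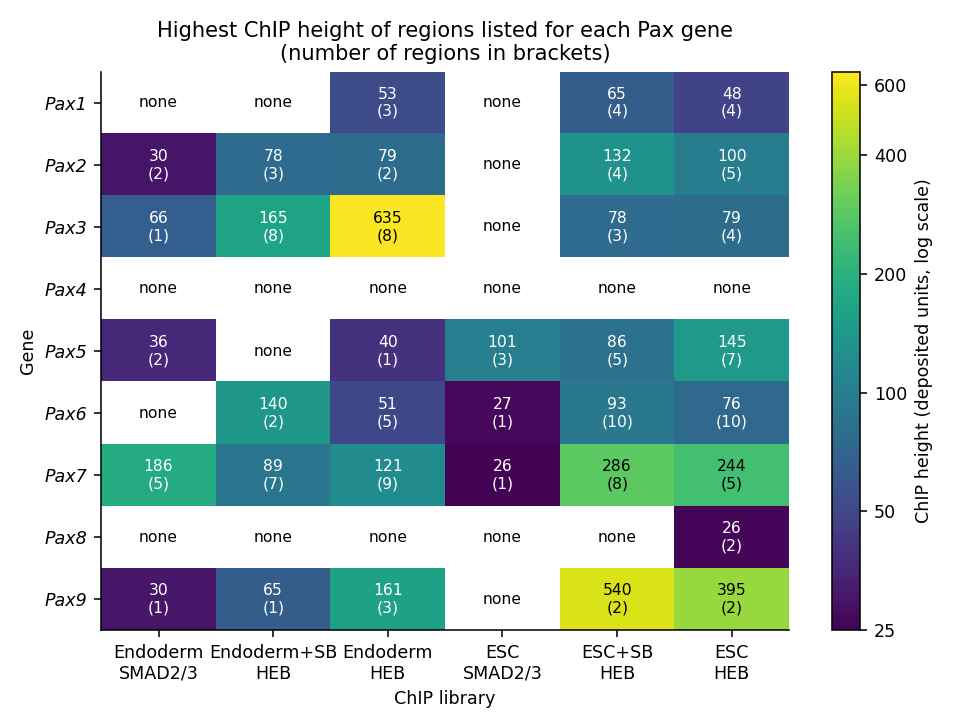
Highest deposited ChIP height of the regions listed for each Pax gene (rows) in each ChIP library (columns), with the number of regions in brackets and colour on a log scale. Pax4 has no region in any library, Pax8 has 2 in ESC HEB alone, and the tallest values are Pax3 in Endoderm HEB and Pax9 in ESC+SB HEB.

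Pax4, a factor of the islet beta cell lineage, had no region in any of the 6 lists. Pax8, needed for the thyroid, had 2 regions, both in ESC HEB and both near that list's smallest height. They lay at chr2:24298810-24299232 and chr2:24297353-24297740, 31854 and 33346 bp from the listed 5′ end, with heights of 26.3 and 25.3 and 127 and 107 ChIP tags against 19 and 6 input tags. The other 7 genes made up the rest of the data.

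Joining regions that overlapped by at least 1 bp gave 56 sites, numbered within each gene from its 5′ side. Of these, 17 were in 1 list, 11 in 2, 17 in 3, 10 in 4 and 1 in 5, and none was in all 6. The commonest pattern, at 8 sites, was HEB in all 4 HEB lists without SMAD2/3. HEB was at 55 sites, of which 21 were in ESC lists only, 15 in endoderm lists only and 19 in both. The same shares over all HEB sites were not computed, so these counts are not shown to be particular to Pax genes. SMAD2/3 was at 16 sites, 11 in endoderm and 5 in ESCs, and no site had it in both. Pax7 had the most sites with 15, followed by Pax5 with 10, Pax3 with 9, Pax6 with 8, Pax2 with 5, Pax1 with 4, Pax9 with 3 and Pax8 with 2. In 8 cases a region that joined a Pax site was itself not listed for the gene, because it lay over 1 kb outside it.

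HEB covered the 5′ end of 6 members, Pax1, Pax2, Pax3, Pax6, Pax7 and Pax9, in Endoderm HEB, ESC+SB HEB and ESC HEB alike. In Endoderm+SB HEB it covered 3, Pax2, Pax7 and Pax9. Regions over these ends were up to 7350 bp wide. The share of all genes with a covered 5′ end was not computed, so these counts cannot be set against the whole lists. Of 127 HEB regions at Pax genes, 26 lay within 1 kb of the listed 5′ end. By list they were 4 of 21 in Endoderm+SB HEB (19.0%, exact Clopper-Pearson 95% CI 5.45 to 41.9, which covers counting error only, against 55.0% of the regions that the list assigns to any gene) and 7 of 31 in Endoderm HEB (22.6%, 9.59 to 41.1, against 28.6%). They were 7 of 36 in ESC+SB HEB (19.4%, 8.19 to 36.0, against 46.2%) and 8 of 39 in ESC HEB (20.5%, 9.30 to 36.5, against 32.1%). The share over all genes was above the Pax interval in both lists with SB and inside it in both lists without SB. Regions of 1 Pax gene are not independent, and gene length was not matched.

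Pax9, expressed in the pharyngeal pouches and sclerotome, had the tallest HEB region at a 5′ end. Its 5′ end was at position 57796626 of chromosome 12 on the plus strand (mm9). Heights there were 30.4 for Endoderm SMAD2/3, 65.4 for Endoderm+SB HEB, 161 for Endoderm HEB, 540 for ESC+SB HEB and 395 for ESC HEB, with no ESC SMAD2/3 region. HEB was thus higher in both ESC libraries than in both endoderm libraries, and lowest in endoderm with SB. The region spanned chr12:57795214-57799142 in ESC HEB, 3929 bp holding 3582 ChIP tags against 108 input tags, and ranked 85 of 17222 by height. Its width was 679 bp in Endoderm+SB HEB and 3876 bp in Endoderm HEB, against 3905 bp in ESC+SB HEB and 3929 bp in ESC HEB. A second Pax9 HEB site, 4087 bp into the gene, had heights of 40.2 in Endoderm HEB, 109 in ESC+SB HEB and 69.1 in ESC HEB and none with SB in endoderm. Pax1, the paralog of Pax9 in the same tissues, had lower regions at its 5′ end (position 147190730 of chromosome 2, plus strand), with heights of 26.4 in Endoderm HEB, 35.8 in ESC+SB HEB and 28.1 in ESC HEB. All 4 Pax1 sites lay within 9143 bp of the 5′ end, and none had SMAD2/3 or a region in Endoderm+SB HEB.

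Pax7, a determinant of muscle satellite cells and neural crest, had the widest HEB region of the family. Its 5′ end was at position 139388883 of chromosome 4 on the minus strand. Heights at the site over it were 53.6 in Endoderm+SB HEB, 81.6 in Endoderm HEB, 286 in ESC+SB HEB and 244 in ESC HEB. Both ESC heights were above both endoderm heights, as at Pax9. In Endoderm+SB HEB the region of 53.6 lay 127 bp before the end, and the region over the end itself had 36.95. In ESC HEB a single region ran over chr4:139383671-139391020, 7350 bp with 3549 ChIP tags against 171 input tags, and it ranked 2 of 17222 by width in its list. The Endoderm HEB region over the same end was 5038 bp and ranked 4 of 18981. In ESC+SB HEB the same stretch was listed as separate regions of 5149 and 2001 bp side by side, so widths also depend on where a list splits a stretch. A further Pax7 site, from 5931 to 12246 bp into the gene, was covered in ESC+SB HEB by 1 region of 6316 bp, which ranked 5 of 16769.

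Pax3, the neural crest and muscle paralog of Pax7, had HEB heights of 86.0 in Endoderm HEB, 78.2 in ESC+SB HEB and 79.2 in ESC HEB over its 5′ end (position 78193711 of chromosome 1, minus strand). The heights of these regions differed little, but their tallest points lay apart. Relative to the end they were at -1433 bp (before it) in Endoderm HEB, 85 bp in ESC+SB HEB and 91 bp in ESC HEB. Endoderm+SB HEB had no region over the end itself. Its nearest, at 62.4, lay at chr1:78194907-78195318, 1196 bp before the end, and it held the position of the Endoderm HEB tallest point. Pax2, active in kidney and the optic and otic primordia, had 40.9 in Endoderm+SB HEB, 79.4 in Endoderm HEB, 132 in ESC+SB HEB and 99.7 in ESC HEB at position 44831884 of chromosome 19. Pax6, the eye and islet regulator, had 28.6 in Endoderm HEB, 78.1 in ESC+SB HEB and 74.1 in ESC HEB at position 105516602 of chromosome 2, and none in Endoderm+SB HEB. Both genes were higher in both ESC lists than in either endoderm list. Pax5, the B cell regulator, differed from these. No region covered its 5′ end (position 44723312 of chromosome 4, minus strand), and the nearest were 834 bp before it in ESC HEB at a height of 39.9 and 1031 bp before it in ESC+SB HEB at 55.2.

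**Figure D2:**
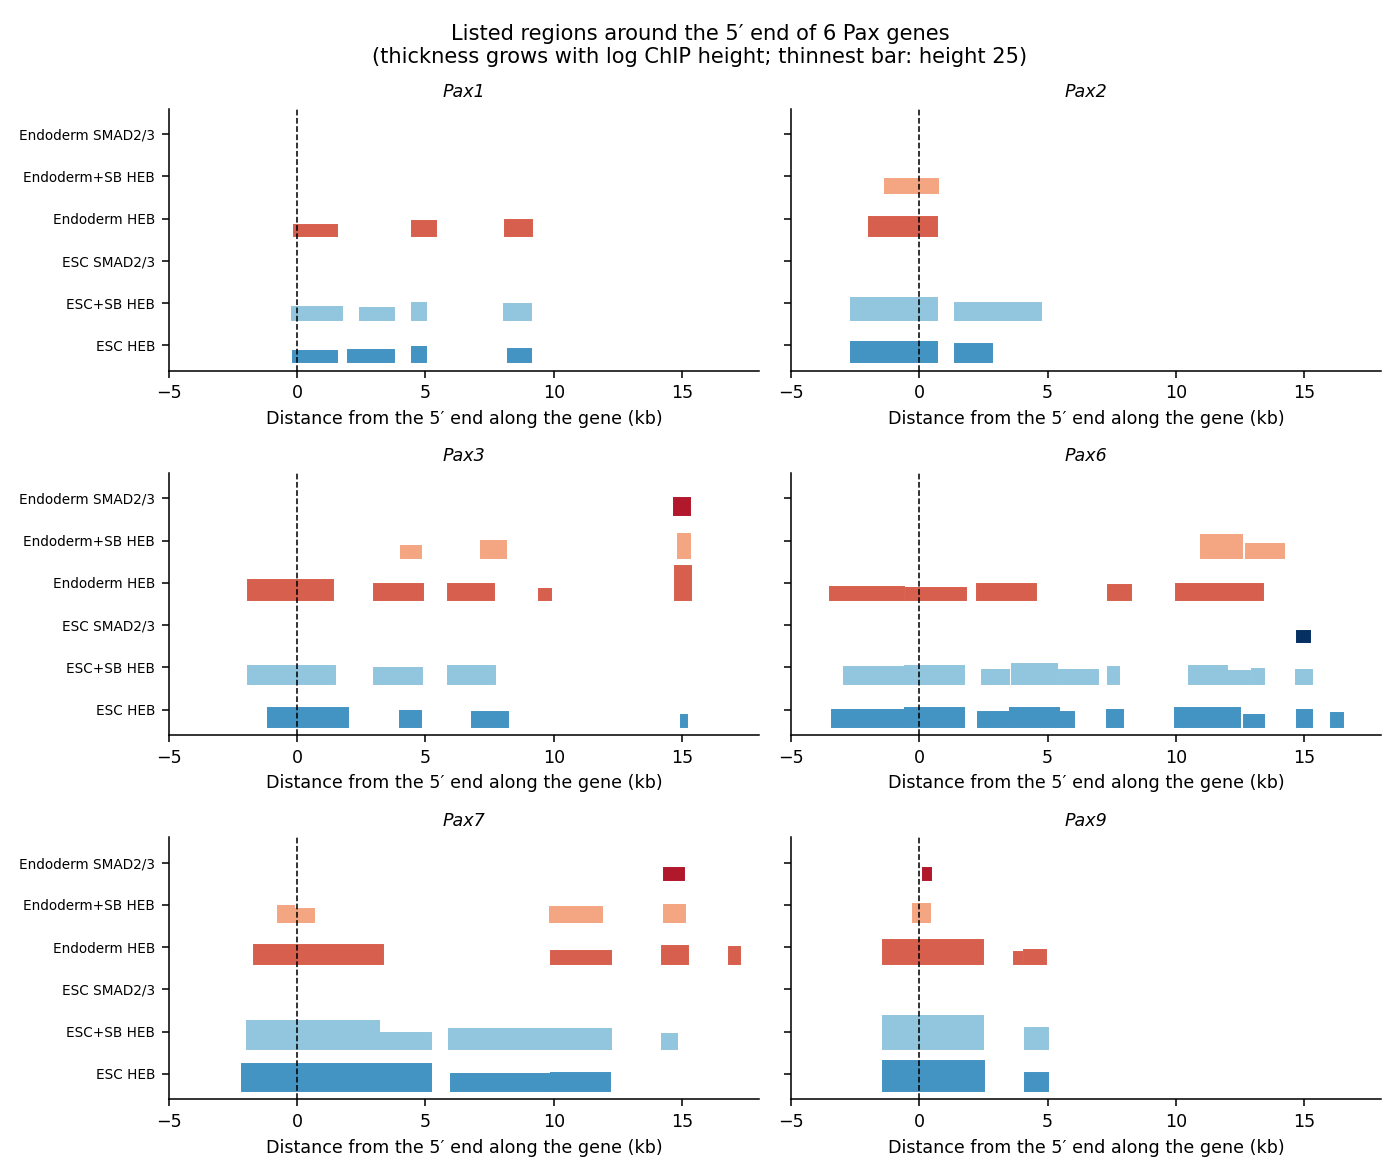
Listed regions from 5 kb before to 18 kb after the 5′ end (dashed line) of 6 Pax genes, drawn to scale along the gene in kb, 1 row per library, with bar thickness rising with the log of ChIP height. Bars in Endoderm HEB, ESC+SB HEB and ESC HEB cover the 5′ end of all 6 genes, those in Endoderm+SB HEB cover 3, with the Pax2 bar still 2062 bp wide, and the SMAD2/3 rows hold few bars.

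HEB regions near Pax 5′ ends were mostly wider than other regions near 5′ ends. The median width of HEB regions within 1 kb of a 5′ end was 693 bp at Pax genes against 580 bp for the rest in Endoderm+SB HEB, and 2879 against 595 bp in Endoderm HEB. It was 3332 against 696 bp in ESC+SB HEB and 2973 against 626 bp in ESC HEB. In the 3 lists other than Endoderm+SB HEB the Pax median was above the 95th percentile of the rest, which was 1605 bp in Endoderm HEB, 2111 bp in ESC+SB HEB and 2277 bp in ESC HEB. Near 5′ ends, regions of at least 2 kb were 1 of 4 at Pax genes in Endoderm+SB HEB (0.372% of such regions of the list), 6 of 7 in Endoderm HEB (3.28%), 6 of 7 in ESC+SB HEB (5.68%) and 6 of 8 in ESC HEB (6.88%). The single Endoderm SMAD2/3 region there was narrower (1.55% of such regions reached 2 kb). Regions of at least 2 kb anywhere in a Pax gene numbered 2 of 21 in Endoderm+SB HEB (0.314% of all gene-assigned regions of the list) and 10 of 31 in Endoderm HEB (32.3%, 95% CI 16.7 to 51.4, against 1.44%). They numbered 10 of 36 in ESC+SB HEB (27.8%, 14.2 to 45.2, against 3.4%) and 9 of 39 in ESC HEB (23.1%, 11.1 to 39.3, against 2.95%). In these 3 lists the lower end of the interval was above the share over all genes. Regions of 1 gene are not independent of each other, and 5 genes, Pax2, Pax3, Pax6, Pax7 and Pax9, held all of them. SMAD2/3 regions at Pax genes were narrow, from 172 to 960 bp in endoderm and from 385 to 770 bp in ESCs, and none reached 2 kb (0.93% and 0.281% of gene-assigned regions of those lists). The median height within 1 kb of 5′ ends was 47.2 at Pax genes against 31.1 for the rest in Endoderm+SB HEB, 79.4 against 32.6 in Endoderm HEB, 78.2 against 36.4 in ESC+SB HEB and 76.6 against 33.3 in ESC HEB. Over all Pax regions, wherever they lay, it was 57.6 against 34.5 for the rest in Endoderm+SB HEB, 49.0 against 39.2 in Endoderm HEB, 60.0 against 40.0 in ESC+SB HEB and 49.1 against 37.6 in ESC HEB.

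**Figure D3:**
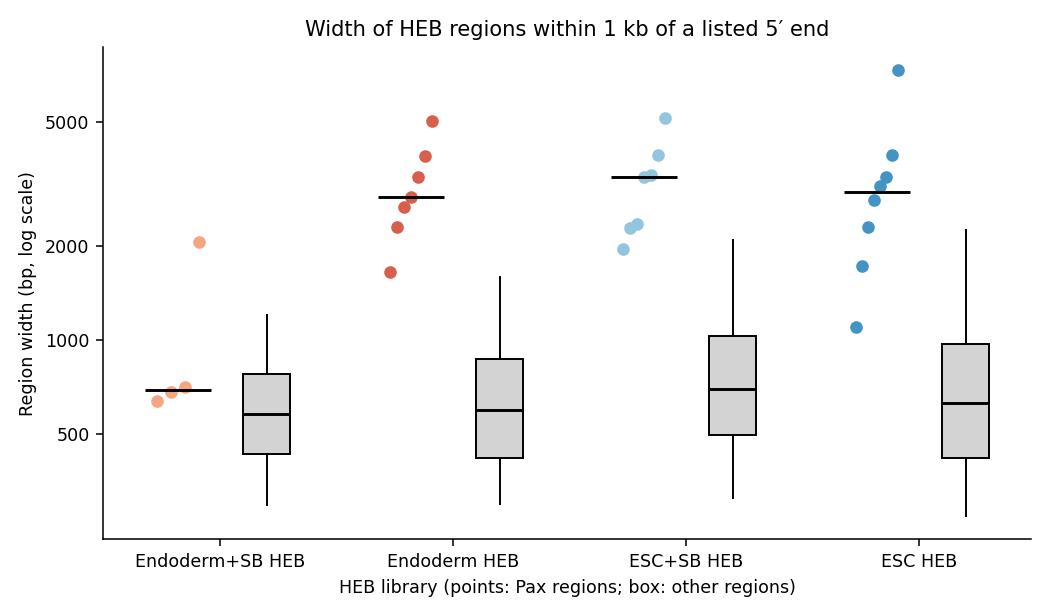
Width in bp (log axis) of HEB regions within 1 kb of a listed 5′ end, with Pax regions as points and their median as a bar beside all other regions as a box (quartiles, with lines to the 5th and 95th percentiles). Pax medians of 2879 bp in Endoderm HEB, 3332 bp in ESC+SB HEB and 2973 bp in ESC HEB sit above the boxes, and that of Endoderm+SB HEB, 693 bp, lies within its box.

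Most SMAD2/3 regions of the family lay far from the 5′ end. The choice of members keeps regions in the gene or within 1 kb of it, so further ones before the gene are not among them. Of 16 SMAD2/3 regions, 1 was within 1 kb of a 5′ end, the Pax9 region of Endoderm SMAD2/3 at a distance of 153 bp. Over all genes, 49.4% of gene-assigned Endoderm SMAD2/3 regions and 29.3% of those of ESC SMAD2/3 were that near. The first lay above the interval of the Pax share of 1 of 11 (95% CI 0.230 to 41.3%), and the second lay inside that of 0 of 5 (up to 52.2%). The median distance from the 5′ end was 67861 bp for Pax regions in Endoderm SMAD2/3, against 1154 bp for regions of other genes, and 160905 bp in ESC SMAD2/3, against 11161 bp. Of the 5 ESC regions 3 were in Pax5, and of the 11 endoderm regions 5 were in Pax7, so single genes weigh heavily in these shares and medians. Regions of 1 gene are not independent. Long genes leave room for such distances, and gene length was not matched.

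In endoderm the tallest SMAD2/3 regions of the family were at the far side of Pax7. Site 14 (chr4:139309557-139310378, 78505 bp into the gene) had a height of 186 for Endoderm SMAD2/3 and 121 for Endoderm HEB. Site 12 had 86.7 for Endoderm SMAD2/3, 42.9 for Endoderm+SB HEB and 99.7 for Endoderm HEB, and site 11 had 33.2 for Endoderm SMAD2/3 and 57.5 for Endoderm HEB. None of these sites had a region in any ESC list, and only site 12 was listed with SB. Nearer the 5′ end, site 3 (14218 bp) and site 6 (21533 bp) had SMAD2/3 at 27.6 and 33.0 in endoderm. HEB at site 6 was 89.4 in Endoderm+SB HEB and 44.5 in Endoderm HEB, and at site 3 it was 56.8 and 69.8 in those libraries and 44.4 in ESC+SB HEB. In ESCs SMAD2/3 was at another place in Pax7, site 10 (63797 bp), with heights of 25.6 for ESC SMAD2/3, 102 for ESC+SB HEB and 120 for ESC HEB and nothing in endoderm.

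Pax3 carried the tallest HEB region of the family inside its body. At site 5 (chr1:78178414-78179022 in Endoderm SMAD2/3, 14689 bp into the gene) heights were 66.1 for Endoderm SMAD2/3, 165 for Endoderm+SB HEB, 635 for Endoderm HEB and 29.0 for ESC HEB. Endoderm HEB was 4.45 log2 units above ESC HEB, with 1697 ChIP tags against 65. On tag enrichment, the authors' measure of ChIP against input tags, that difference was 3.64. A group of Pax3 sites further in was seen in the endoderm HEB lists only. Site 8 (54829 bp) had 72.8 in Endoderm+SB HEB and 183 in Endoderm HEB, while site 7 had 63.1 and 33.5, and site 9 had 73.8 and 29.3, in those libraries. With SB, neighbours of the tallest site were thus higher while that site was lower.

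Pax5 was the member with the most SMAD2/3 in ESCs. Its sites 7, 8 and 10 lie between 160828 and 166895 bp from the 5′ end and had regions in all 3 ESC lists and in no endoderm list. Site 7 had 33.8 for ESC SMAD2/3, 85.6 for ESC+SB HEB and 145 for ESC HEB. Site 8 had 29.7 for ESC SMAD2/3, 61.4 for ESC+SB HEB and 94.6 for ESC HEB, and site 10 (chr4:44556429-44557198) had 101, 64.5 and 97.1 in the same libraries. In endoderm Pax5 had SMAD2/3 elsewhere, at site 2 (5541 bp) with 36.4 and at site 5 (131559 bp) with 25.2, the only Pax site with SMAD2/3 and no HEB in any list. Pax6 had SMAD2/3 in ESCs at site 7 (14697 bp) with 26.8, beside 45.0 for ESC+SB HEB and 57.8 for ESC HEB. Pax2 had it in endoderm at site 4 (67849 bp) with 29.9, beside 77.6 for Endoderm+SB HEB and 44.7 for Endoderm HEB, and at site 5 with 26.3, where the HEB regions were in ESC+SB HEB (44.1) and ESC HEB (41.8).

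**Figure D4:**
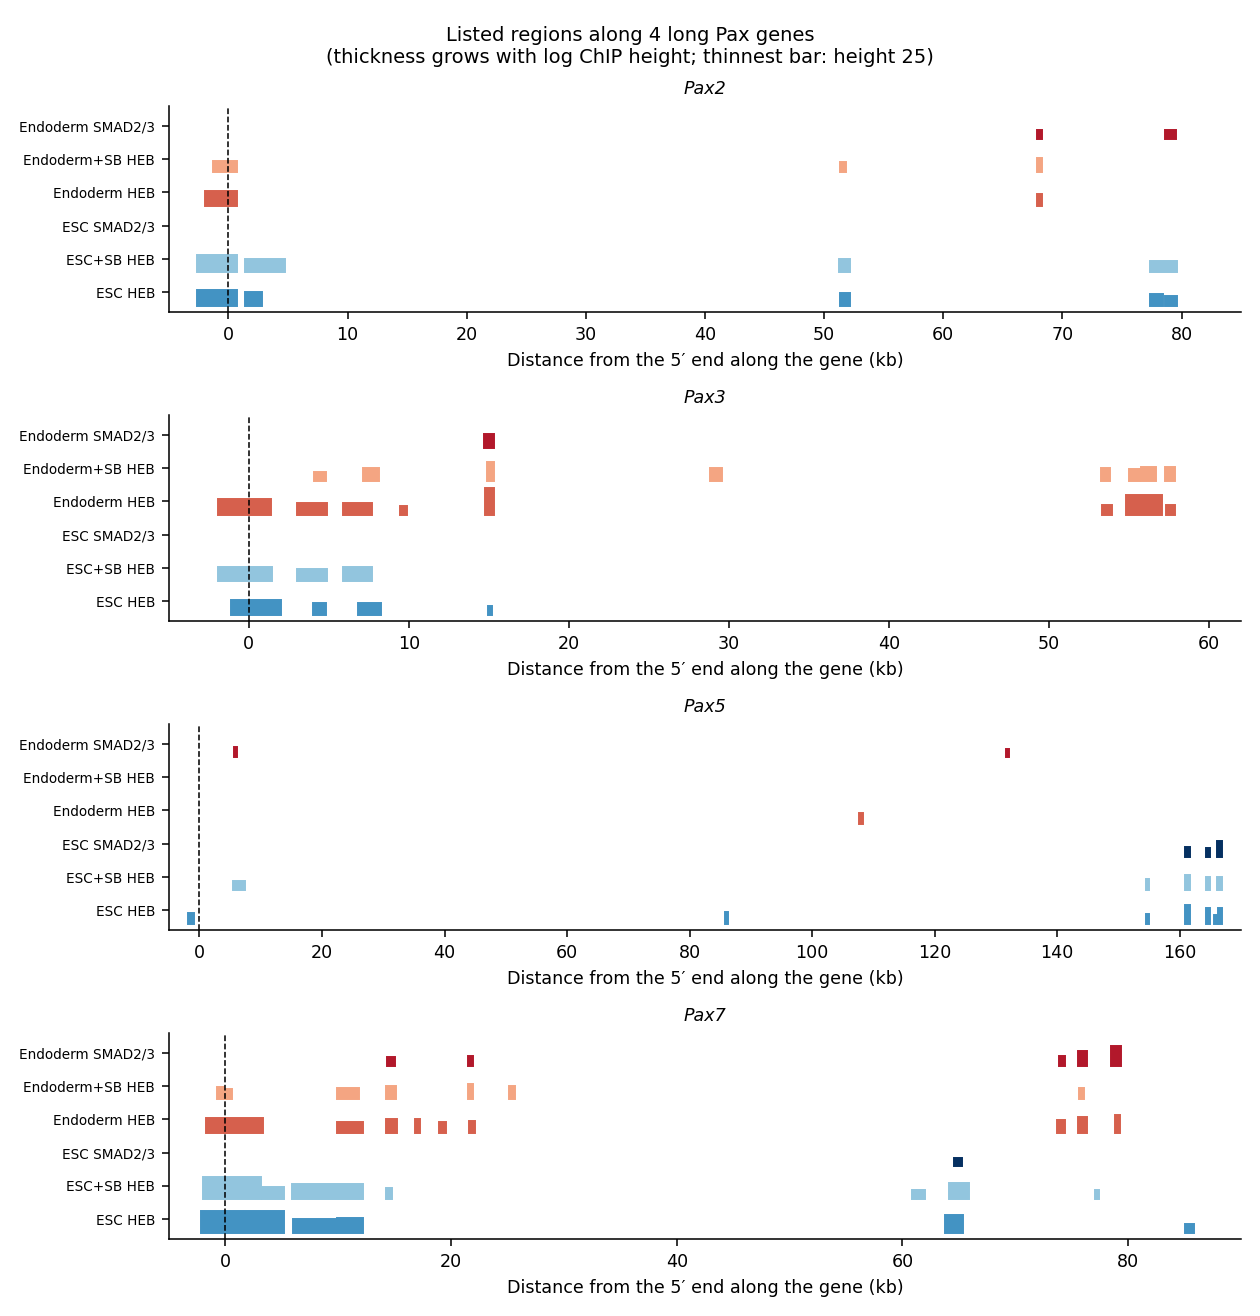
Listed regions along Pax2, Pax3, Pax5 and Pax7 in kb from the 5′ end (dashed line), 1 row per library, with bar thickness rising with the log of ChIP height and narrow regions drawn at a minimum width. The tallest SMAD2/3 regions lie in endoderm at the far side of Pax7 and at 14689 bp in Pax3, and in ESCs at the far side of Pax5.

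Between the states, HEB regions at Pax genes were shared for about 1 region in 2, and no SMAD2/3 region was shared. Of Endoderm HEB regions at Pax genes, 17 of 31 overlapped an ESC HEB region (54.8%, 95% CI 36.0 to 72.7), against 32.8% of that list's gene-assigned regions and 54.0% of its regions within 1 kb of a 5′ end. Of ESC HEB regions at Pax genes, 19 of 39 overlapped an Endoderm HEB region (48.7%, 32.4 to 65.2), against 34.6% and 51.1%. With lists of equal length 4 of 9 Endoderm HEB regions at Pax genes overlapped ESC HEB. For SMAD2/3, 0 of 11 endoderm regions overlapped an ESC region, which allows up to 28.5%, against 13.8% of gene-assigned regions, and 0 of 5 ESC regions overlapped an endoderm region, which allows up to 52.2%, against 44.2%. Both shares over all genes lay inside those limits. At the 17 Pax sites with HEB in both states, Endoderm HEB was lower than ESC HEB at 13 and higher at 4, while 47.3% of 5378 matched sites of the whole lists were higher in endoderm. The median difference was -0.41 log2 units at Pax sites and -0.04 over all matched sites. It was -0.17 on tag enrichment, against 0.27 over all, so on that scale the whole lists shifted upward while the Pax median stayed negative. Past 2-fold, 4 sites were lower in endoderm (13.6% of all matched sites) and 1 was higher (11.6%). The 4 were the 5′ sites of Pax7 (-1.58), Pax9 (-1.29) and Pax6 (-1.37) and the second Pax7 site (-1.02), and the 1 was Pax3 site 5. On tag enrichment the same 4 were -0.34, -1.13, -0.52 and -0.75, so the sign held and only Pax9 stayed past 2-fold. Width at the 17 sites was larger in endoderm at 10 and smaller at 7, and 49.1% of all matched sites were wider.

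With SB in ESCs, HEB heights at the family differed by less than 2-fold, and were lowest relative to ESC HEB at far Pax5 sites. Of ESC+SB HEB regions at Pax genes, 31 of 36 overlapped an ESC HEB region (86.1%, 70.5 to 95.3), against 70.9% of gene-assigned regions, and 32 of 39 ESC HEB regions overlapped one with SB (82.1%, 66.5 to 92.5), against 77.4%. Joining these 2 lists alone gave 29 matched stretches at 28 of the numbered sites, with 2 in Pax6 site 3. The height was higher with SB at 20 and lower at 9, with 60.2% of all matched sites higher. The median was 0.12 log2 units at Pax sites and 0.10 over all, and none of the 29 heights differed by 2-fold (0.367% of all matched sites were that much higher and 2.1% that much lower). The sign depended on the scale. On tag enrichment 19 of 29 were lower with SB (69.4% of all matched sites), with a median of -0.29 at Pax sites and -0.25 over all. There 4 were lower past 2-fold (8.63%), Pax5 site 7 (-1.09), Pax6 site 4 (-1.06), Pax5 site 10 (-1.03) and Pax2 site 2 (-1.01). The lowest height differences were at Pax5 site 7 (-0.76), site 8 (-0.62) and site 10 (-0.59). Pax6 site 7 (-0.36) and Pax7 site 10 (-0.24), the other ESC sites with SMAD2/3, were also lower with SB. On tag enrichment the Pax5 sites did not stand apart in this way, with site 8 at -0.71 and Pax7 site 10 at -0.77. The share lower with SB among all ESC sites with SMAD2/3 was not computed, so a link to SMAD2/3 was not tested. The Pax5 sites also lie near each other in 1 gene and are not independent. The 5′ sites of Pax9 (0.45), Pax2 (0.40) and Pax7 (0.23) were higher with SB on all 4 scales used, though on tag enrichment by 0.03, 0.07 and 0.13 only. Width was larger with SB at 14 of the 29 stretches (52.9% of all matched sites). These differences are of the size seen at many sites of the lists, and without replicates none could be set against library error.

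With SB in endoderm, HEB at the family was narrower and in part lower. An effect of SB on HEB and a different state of the SB-treated cells cannot be told apart here. The Endoderm+SB HEB list also held less signal, with 2284735 ChIP tags in 10147 regions, against 5051930 in 18981 for Endoderm HEB. The bearing of that on width and height was not tested. Of Endoderm+SB HEB regions at Pax genes, 18 of 21 overlapped an Endoderm HEB region (85.7%, 63.7 to 96.95), against 47.0% of gene-assigned regions, and 17 of 31 Endoderm HEB regions overlapped one with SB (54.8%, 36.0 to 72.7), against 29.8%. Both shares over all genes lay below the Pax intervals, while among regions within 1 kb of a 5′ end the shares were 45.7% and 56.3%, the second of them inside the Pax interval. Width was smaller with SB at 16 of 17 matched sites and larger at 1, while 41.8% of 4745 matched sites were wider with SB, and the median difference was -0.46 log2 units, against -0.07 over all. Broad sites of the whole list were narrower with SB too. All 8 Pax sites of at least 2 kb in Endoderm HEB were narrower, with a median of -1.18 log2 units, and 4.65% of 129 such sites in the list were wider, with a list median of -0.99. Height was lower with SB at 10 of 17 Pax sites and higher at 7 (41.1% of all were higher), with a median of -0.30, against -0.12 over all. Past 2-fold, 4 were lower (17.5%) and 3 higher (5.77%).

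The 4 lower sites were Pax3 site 5 (-1.94), Pax3 site 8 (-1.33), the Pax9 5′ site (-1.30) and Pax7 site 12 (-1.22). The 3 higher were Pax6 site 6 (1.51), Pax3 site 9 (1.33) and Pax7 site 6 (1.01). On tag enrichment the lower ones were -0.46, -0.21, -0.37 and -0.28 and the higher ones 1.34, 1.38 and 1.03, so the signs held and the lower sites differed by less. Pax6 site 6, about 10 kb into the gene, had 140 in Endoderm+SB HEB and 49.0 in Endoderm HEB, beside 71.5 in ESC+SB HEB and 73.8 in ESC HEB. It was the only Pax6 site listed with SB in endoderm for the gene itself. The 5′ site of Pax7 was 1345 bp wide in 2 regions with SB in endoderm and 5038 bp without. At the Pax1, Pax3 and Pax6 5′ ends the region over the end itself was missing with SB. Without SB those of Pax1 and Pax6 had 26.4 and 28.6, near the smallest height of Endoderm HEB, 25.0. At Pax3 the tallest point of the Endoderm HEB region, before the end, did lie in a region with SB. Between the SB lists of both states, 11 of 21 Endoderm+SB HEB regions at Pax genes overlapped ESC+SB HEB (52.4%, 29.8 to 74.3, against 45.0% of gene-assigned regions), and 13 of 36 did in reverse (36.1%, 20.8 to 53.8, against 27.7%). At 11 matched sites Endoderm+SB HEB was higher at 2 (24.2% of all) and lower at 9, with a median of -0.92 log2 units, against -0.32 over all, but 0.08 on tag enrichment, against 0.40 over all. Past 2-fold, 5 were lower (16.3%) and none higher (3.39%), and 2 of the 11 were wider (31.0%).

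**Figure D5:**
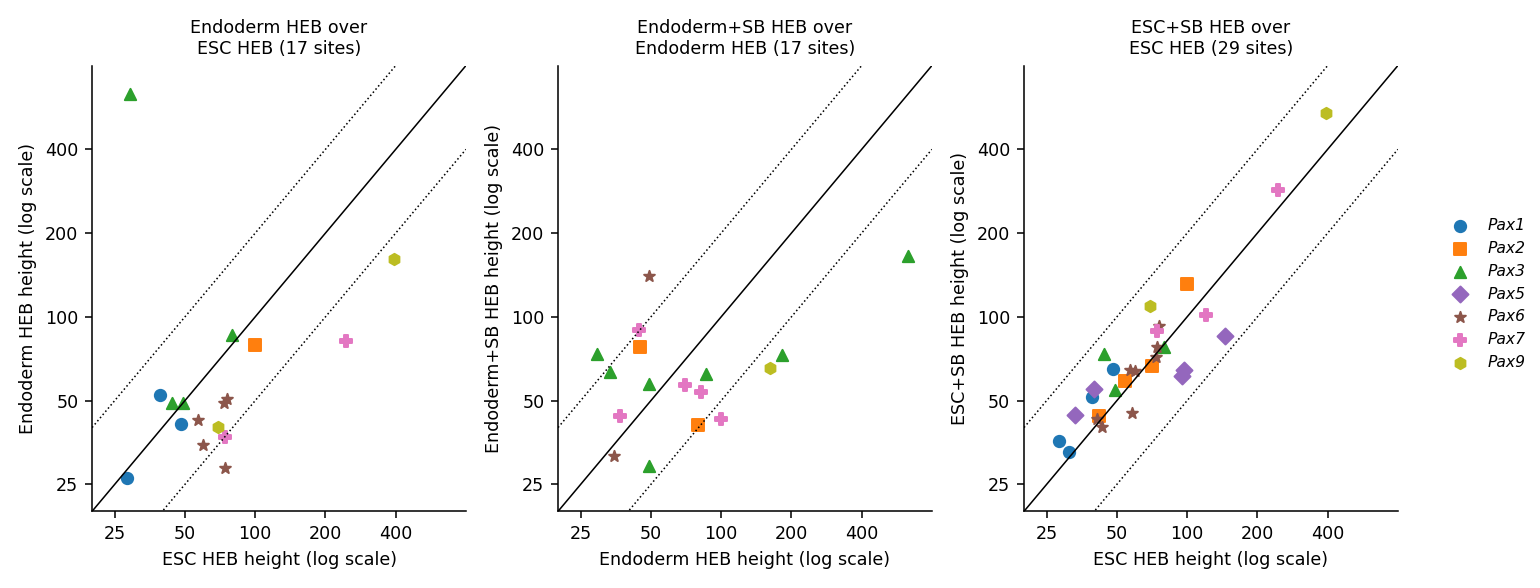
Deposited HEB heights (log axes) at matched Pax sites, with the library named first in each panel title on the vertical axis and the other on the horizontal, coloured and shaped by gene, with a solid line at equality and dotted lines at 2-fold. Pax3 site 5 stands far above the line for Endoderm HEB over ESC HEB (4.45 log2 units), and all 29 ESC stretches stay within 2-fold in height with SB.

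Where both factors met, HEB was mostly the taller. All 5 ESC SMAD2/3 regions at Pax genes overlapped an ESC HEB region (95% CI 47.8 to 100%, against 81.0% of gene-assigned regions), and 8 of 11 Endoderm SMAD2/3 regions overlapped an Endoderm HEB region (72.7%, 39.0 to 94.0, against 55.9%). In reverse, 5 of 39 ESC HEB regions (12.8%, 4.30 to 27.4, against 18.1%) and 8 of 31 Endoderm HEB regions (25.8%, 11.9 to 44.6, against 38.1%) overlapped SMAD2/3. All 4 shares over all genes lay inside the intervals. SMAD2/3 over HEB height had a median of -1.67 log2 units at the 5 ESC sites, against -0.74 over all, with 4 lower past 2-fold (37.4%), and -0.68 at the 8 endoderm sites, against -0.26 over all, with 3 lower past 2-fold (24.5%). The antibodies differ, so such a ratio does not compare amounts bound. Pax7 site 14 was the endoderm site where SMAD2/3 was higher (0.62), which on tag enrichment was -0.96. Of the 11 endoderm SMAD2/3 sites, 5 also had HEB in an ESC list, and the share over all endoderm SMAD2/3 sites was not computed.

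Regions that were not listed for a Pax gene also lay before the 5′ ends. Within 50 kb before the Pax9 start, the tallest had a height of 30.6 in Endoderm SMAD2/3, 25.8 in Endoderm+SB HEB, 72.2 in Endoderm HEB, 176 in ESC+SB HEB and 146 in ESC HEB, the last 2 at 2096 and 2552 bp. The order of the HEB lists was the same as at the Pax9 5′ site. Before Pax1 the tallest was about 2 kb away and had 31.1 in Endoderm SMAD2/3, 29.5 in Endoderm+SB HEB, 49.1 in Endoderm HEB, 74.3 in ESC+SB HEB and 65.6 in ESC HEB. Before Pax6 the Pax6os1 region, listed for the antisense transcript beside the gene, had 54.1 in Endoderm HEB, 124 in ESC+SB HEB and 98.0 in ESC HEB. Before Pax8 there was 1 region, in Endoderm+SB HEB at 29.8.

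Genes beside the Pax genes on the chromosome, formed a list of 19, of which 12 were listed in Endoderm SMAD2/3 (20.7% of all protein-coding genes), 9 in Endoderm+SB HEB (20.4%), 12 in Endoderm HEB (22.2%), 2 in ESC SMAD2/3 (6.58%), 10 in ESC+SB HEB (26.6%) and 10 in ESC HEB (21.7%). Elp4, next to Pax6 and known to hold enhancers of it, had 59.0 in Endoderm SMAD2/3, 168 over 6 regions in Endoderm+SB HEB and 31.4 in ESC SMAD2/3, with no HEB region in the other 3 HEB lists. Like Pax6 site 6, it was thus tallest in endoderm with SB. Slc25a21, beside Pax9, had 163 in Endoderm SMAD2/3, 76.4 in Endoderm HEB and 25.9 in ESC HEB. Nkx2-2, a ventral neural and islet factor near Pax1, had 47.6 in Endoderm+SB HEB, 126 in Endoderm HEB, 171 in ESC+SB HEB and 162 in ESC HEB. Epha4, a receptor tyrosine kinase gene beside Pax3, had 38.5 in Endoderm SMAD2/3, 226 in Endoderm+SB HEB, 93.8 in Endoderm HEB, 51.6 in ESC SMAD2/3, 155 in ESC+SB HEB and 262 in ESC HEB.

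Eya1 to Eya4, Dach1 and Dach2 act with Pax proteins in eye, ear, kidney and muscle. Of these 6, 4 were listed in Endoderm SMAD2/3 (20.7% of all protein-coding genes), 4 in Endoderm+SB HEB (20.4%), 3 in Endoderm HEB (22.2%), 1 in ESC SMAD2/3 (6.58%), 3 in ESC+SB HEB (26.6%) and 3 in ESC HEB (21.7%). Dach1 and Dach2, transcriptional cofactors, had no region in any list. Eya2, a phosphatase and coactivator, had 104 in Endoderm SMAD2/3, 155 in Endoderm+SB HEB, 223 in Endoderm HEB, 33.7 in ESC+SB HEB and 27.1 in ESC HEB. It was high in the 3 endoderm lists and near the smallest height in ESCs, as was Pax3 site 5. Eya1 had 39.9 in Endoderm SMAD2/3, 37.5 in Endoderm+SB HEB and 110 in Endoderm HEB and no ESC region. Eya4 had 59.8 in Endoderm SMAD2/3, 36.5 in Endoderm+SB HEB, 53.6 in Endoderm HEB, 97.2 in ESC+SB HEB and 82.8 in ESC HEB, so its HEB was higher in both ESC lists. Eya3 had 33.97 in Endoderm SMAD2/3, 28.1 in Endoderm+SB HEB, 35.3 in ESC SMAD2/3, 30.4 in ESC+SB HEB and 32.9 in ESC HEB. Six3, a forebrain and eye factor, was also higher in ESCs, with 31.9 in Endoderm+SB HEB, 50.9 in Endoderm HEB, 114 in ESC+SB HEB and 108 in ESC HEB. Six2, of kidney progenitors, had 52.8 in Endoderm SMAD2/3, 58.6 in Endoderm HEB, 69.3 in ESC+SB HEB and 47.8 in ESC HEB, with a region of 4982 bp over its 5′ end in ESC HEB.

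For each Pax gene with regions in at least 3 lists, the genes of nearest pattern were found by Euclidean distance over the 6 lists of log2(1 + highest height), with 0 where none was listed. They were Dkk1 (0.08) and 2310008H04Rik (0.09) for Pax1, Oat (0.46) and Meis1 (0.57) for Pax2, Pkdcc (1.30) and Pebp4 (1.45) for Pax3, and Grik4 (0.54) and Dlgap4 (0.59) for Pax5. They were Sfxn5 (0.98) for Pax6, Arhgef18 (0.92) and Amotl2 (1.20) for Pax7, and Meis2 (1.09) and Cbx8 (1.34) for Pax9. The Pax1 pattern was common, with 182 genes within a distance of 1, while Pax3 and Pax9 had none that near. Meis2, a homeobox cofactor, had 37.3 in Endoderm SMAD2/3, 77.5 in Endoderm+SB HEB, 147 in Endoderm HEB, 319 in ESC+SB HEB and 246 in ESC HEB. The order is that of Pax9, but genes were picked by nearness in these same heights, so a like order follows from the choice.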

How the data were processed

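Per the labels, 6 ChIP and 4 input libraries were sequenced on an Illumina Genome Analyzer II. CASAVA 1.8.2 and build mm9 appear in the submitters' processing notes. Aligner, peak caller and annotation were not given in the sources used here. Input reads were not used here. The authors deposited 1 region list per ChIP library. Per the file headers, each region has a ChIP tag count and a background tag count. The deposited signal is the highest ChIP and background height in the region, with no stated scaling. The deposited tag enrichment sets ChIP against background tags. At some regions it was below the plain ratio of these counts, and how it was adjusted was not stated. Pax7 site 11 in Endoderm HEB, for example, had 246 ChIP tags, 8 background tags and an enrichment of 18.4. The authors' score headed as a q-value was not used. Gene and 5′ end distance are the authors' assignment, which lists a gene for a region in it or within 1 kb of it. Coordinates are printed as deposited.

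Width was right minus left plus 1. Lists were matched by overlap of at least 1 bp (Python 3.11.15, pandas 2.3.3, SciPy 1.17.1). At a matched site the highest region of each list gave the height and the sum of its regions the width, and 2-fold was called. Regions within 1 kb of the 5′ end count as near it. Exact Clopper-Pearson intervals at 95% cover counting error only, and PCR reads are not independent molecules. With 1 library a group no test was made. Overlap code was tested on simulated lists. Alternatives were list cuts, overlap rules, distance limits and 3 other height scales (height over the list median, tag enrichment, height minus background). Named genes were all 9 Pax genes, a list of genes that act with Pax proteins (Eya1 to Eya4, Dach1, Dach2, Six2 and Six3 are given), a list of neighbours, and the 2 genes of nearest pattern. Some items these rules name are not reported here. Shares over all genes count regions the authors assigned to any gene, as all Pax regions are. Members and lists were chosen with earlier results of these data known.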

Additional observations from a re-analysis of the deposited data

Results flagged for a closer look

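At 9 Pax sites with HEB in all 4 HEB lists, the log2 ratio of height with SB over without SB was set side by side for endoderm and ESCs. It had opposite signs in the 2 states at 6 sites, each from 1 library per group, and the difference was not tested. The share of opposite signs over all sites of the lists was not computed. Over all matched sites, 60.2% were higher with SB in ESCs and 41.1% in endoderm, so the count is not shown to be particular to Pax sites. The Pax9 5′ site had -1.30 in endoderm and 0.45 in ESCs, and the Pax2 5′ site had -0.96 and 0.40. Pax3 site 2 had -0.76 and 0.15, the Pax7 5′ site -0.61 and 0.23, and Pax6 site 1 -0.13 and 0.10. Pax6 site 6 ran the other way, with 1.51 in endoderm and -0.04 in ESCs. None exceeded 1.5-fold in both directions. On tag enrichment the ESC sign turned at Pax3 site 2 (-0.59), Pax6 site 1 (-0.21) and Pax6 site 6 (0.27), and the endoderm sign at Pax6 site 1 (0.03). The 3 that kept both signs on tag enrichment were the 5′ sites of Pax9 (-0.37 and 0.03), Pax2 (-0.86 and 0.07) and Pax7 (-0.34 and 0.13).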

How the results depend on the processing

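Of 108 alternative values, 87 stayed close to the reported one and 21 moved, the counts among them by more than 1.5 times. Keeping the upper 50% of each list by height gave 3 Pax genes and 4 regions in Endoderm SMAD2/3, 1 gene and 1 region in ESC SMAD2/3, 3 regions shared by Endoderm SMAD2/3 with Endoderm HEB and 1 by ESC SMAD2/3 with ESC HEB. Taking equal list lengths gave 2 genes and 3 regions in Endoderm SMAD2/3, 4 genes and 9 regions in Endoderm HEB, 19 regions in ESC+SB HEB and 16 in ESC HEB. Under equal lengths shared regions were 4 for Endoderm HEB with ESC HEB, 15 for ESC+SB HEB with ESC HEB, 8 for Endoderm+SB HEB with Endoderm HEB, 3 for Endoderm SMAD2/3 with Endoderm HEB and 7 for Endoderm+SB HEB with ESC+SB HEB. Starting all lists at 1 common height left 1 gene and 3 regions in ESC SMAD2/3, with 3 shared with ESC HEB. These cuts keep fewer regions by construction. The median height difference of Endoderm+SB HEB over ESC+SB HEB was 0.08 on tag enrichment, against -0.92 on height, and the cause was not tested. Overlap rules and distance limits moved no count past 1.5 times. Endoderm SMAD2/3 over ESC SMAD2/3 had no matched Pax site and so no value. No paired analysis was possible because each group had 1 ChIP library. ESC SMAD2/3, with 4111 regions, limits what its missing sites can show.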
